A study of Mus musculus with 18 samples.

Results

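The 10 genes described here are an epithelial and a mesenchymal set that are read together as a cadherin switch. Cdh1, Epcam and Cldn6 stand on the epithelial side, Cdh2, Vim and Fn1 on the mesenchymal side, and Zeb1, Zeb2, Snai1 and Snai2 encode transcriptional repressors. They were taken by name from the 25239 genes of the deposited count table, and all 10 were among the 16582 genes with enough counts to be tested. RNA-seq was made from 18 libraries, 2 for each of 9 conditions, of mouse E14Tg2a embryonic stem cells that were wild-type (WT) or lacked Tet1, Tet2 and Tet3 (TKO). The TKO cells are 1 clonal line, from which the whole open reading frame of each gene was removed by CRISPR/Cas9. EpiLCs (epiblast-like cells) were made from both genotypes in Activin A and Fgf and give the day 0 samples. Aggregates of these cells were then kept in GK15 medium, without cytokines for both genotypes at days 2 and 6. Others received BMP4, BMP8a, SCF, LIF and EGF, which induce primordial germ cell-like cells (PGCLCs), with TKO at days 2 and 6 and WT at day 6. By the study's own description, the WT day 6 sample of this kind holds cells purified by their surface SSEA1 and CD61, and the other aggregates were taken whole. The sample labels name aggregates throughout. Every comparison with this group therefore also compares sorted with unsorted cells. The day 2 counterpart of that WT group was not analysed here. No label says that the 2 libraries of a condition came from separate cultures, while the study calls them biological replicates. The p-values measure only the spread between libraries of a condition, pooled over all conditions. By a chi-square per gene between the 2 libraries of a condition, this spread was largest in WT at day 6 without cytokines. It was smallest in TKO at day 6 without cytokines.

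Libraries held between 11286050 and 41257861 counts, of which 16.2% to 47.6% lay on the ribosomal RNA locus Rn45s. The 8 libraries from aggregates that had no cytokines held 16.2% to 31.3% and the remaining 10 libraries 31.7% to 47.6%. Levels are given below as normalised counts, which are raw counts divided by a size factor for each library. Differences are log2 fold changes with their standard error (SE) from edgeR's quasi-likelihood test. A gene is called where its Benjamini-Hochberg adjusted p, over all 16582 genes, is below 0.05. An exact permutation test of 2 libraries against 2 cannot give a p below 0.333, so every call draws on a spread estimated jointly over genes and groups. The targeted genes were lower in TKO than in WT EpiLCs for Tet1 (log2 fold change -2.82 ± 0.33 SE, edgeR adjusted p = 0.000216) and Tet3 (-2.64 ± 0.32, adjusted p = 0.00022). Tet2 was at -1.17 ± 0.49 (edgeR adjusted p = 0.141). Without cytokines, Tet1 did not pass the test between TKO and WT at day 2 (-0.30 ± 0.31, edgeR adjusted p = 0.491) or day 6 (-0.12 ± 0.31, adjusted p = 0.777). Tet2 was at 0.61 ± 0.44 (edgeR adjusted p = 0.301) at day 2, with means of 380 normalised counts in TKO and 244 in WT, and lower in TKO at day 6 (-1.78 ± 0.44, adjusted p = 0.00303). Tet3 was lower in TKO at both days (-3.52 ± 0.32, edgeR adjusted p = 1.74e-06, and -4.23 ± 0.33, adjusted p = 7.45e-08). With cytokines at day 6, Tet1 (-4.20 ± 0.35, edgeR adjusted p = 2.9e-06) and Tet2 (-4.04 ± 0.48, adjusted p = 6.46e-05) were lower in TKO. Tet3 was lower there as well (-1.73 ± 0.33, edgeR adjusted p = 0.00242). The counts are summed over whole genes, exons outside the removed reading frames included.

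Cdh1 encodes E-cadherin, the calcium-dependent adhesion molecule of epithelial cells and of the epiblast, and Cdh2 encodes N-cadherin, which takes its place in neural and mesenchymal cells. In an epithelial to mesenchymal transition the ZEB and SNAIL zinc finger proteins repress Cdh1 and other epithelial genes by binding to E-boxes. Vim (vimentin, an intermediate filament protein) and Fn1 (fibronectin, an extracellular matrix protein) are commonly used as markers of the mesenchymal state. The same exchange of E-cadherin for N-cadherin is well known from the formation of the neural plate, while primordial germ cells keep E-cadherin. Epcam is an epithelial adhesion molecule and Cldn6 a tight junction claudin of embryonic epithelia and pluripotent cells.

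The promoters of the 2 epithelial members for which a sequence was at hand are shown because both genes fell together without cytokines in WT cells. ZEB and SNAIL proteins bind E-boxes of the form CAGGTG, read as CACCTG on the other strand. Each is the 250 bases before the RefSeq start of the gene (assembly GRCm38.p6, + strand), with E-boxes in capitals, at chr17:87635729-87635978 for Epcam and chr17:23679115-23679364 for Cldn6.
Epcam: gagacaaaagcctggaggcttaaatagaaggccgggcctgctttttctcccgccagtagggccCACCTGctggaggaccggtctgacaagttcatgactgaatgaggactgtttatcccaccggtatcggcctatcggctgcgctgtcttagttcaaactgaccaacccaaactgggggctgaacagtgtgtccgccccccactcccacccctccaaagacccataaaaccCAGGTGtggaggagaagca
Cldn6: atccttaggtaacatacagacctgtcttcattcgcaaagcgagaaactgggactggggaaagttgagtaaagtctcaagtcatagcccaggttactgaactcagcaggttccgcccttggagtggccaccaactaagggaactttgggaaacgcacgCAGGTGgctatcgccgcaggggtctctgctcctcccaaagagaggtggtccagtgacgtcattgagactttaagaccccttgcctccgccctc
In Epcam the motifs began 187 and 19 bases before the start. In Cldn6 a motif began 93 bases before it, and a further CAGGTG lay after the start in the part that is not shown. These places hold for the RefSeq start. In the GENCODE vM21 annotation Cldn6 starts at chr17:23679249, within the bases shown and before the first of its motifs. Over windows of 300 bases (250 before and 50 after the start), the motif was in 20.2% of 32851 RefSeq promoters. Of the 5 members with such a window it was present in 3 (Epcam, Cldn6 and Snai1) and absent from Vim and from the 4 windows of Zeb2. The 5 members had 8 windows in all, and the 20.2% is a share of windows and not of genes. These matches describe the letters only.

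Among the epithelial members, Cdh1 (chr8:106603351-106670246, + strand, GENCODE vM21 on GRCm38) was high in every condition except 1. It had 10331 and 11249 normalised counts in the WT EpiLC libraries, 4104 and 5535 in WT at day 2 without cytokines, 23.6 and 34.7 in WT at day 6 without cytokines, and 2949 and 3721 in WT at day 6 with cytokines. TKO EpiLCs had 10107 and 9451 and TKO day 2 cells 7405 and 7725 without cytokines and 6828 and 7347 with them. TKO day 6 cells had 4899 and 5504 without cytokines and 3543 and 4625 with them. WT EpiLCs were thus highest and WT day 6 cells without cytokines lowest. The lowest library of any other condition was still far above both libraries of that group. In the order of mean levels, TKO day 6 without cytokines, WT day 2, TKO day 6 with cytokines and WT day 6 with cytokines overlapped each with the next, while the other neighbours did not overlap.

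Epcam (chr17:87635979-87651129, + strand) and Cldn6 (chr17:23679249-23682446, + strand) had the same low point as Cdh1. Epcam had 3351 and 3171 normalised counts in WT EpiLCs, 1048 and 1779 in WT at day 2 without cytokines, 4.53 and 35.9 in WT at day 6 without cytokines, and 1582 and 1525 in WT at day 6 with cytokines. In TKO libraries Epcam was between 1337 and 4844. Both WT day 6 libraries without cytokines therefore lay below all others, although they differed from each other several-fold. Cldn6 had 1205 and 1447 in WT EpiLCs, 505 and 835 in WT at day 2 without cytokines, 1.36 and 3.47 in WT at day 6 without cytokines, and 401 and 488 in WT at day 6 with cytokines. Its TKO libraries lay between 383 and 1675, with the lowest values at day 6 with cytokines. The highest mean was at day 2 with cytokines (1422 and 1675), which overlapped with TKO EpiLCs (902 and 1610). The WT day 6 libraries without cytokines held 3 raw counts of Cldn6 each, so that this is close to the floor of detection at this depth.

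On the mesenchymal side, Cdh2 (chr18:16588877-16809246, - strand) had its highest level where Cdh1 was lowest. It had 175 and 128 normalised counts in WT EpiLCs, 1200 and 540 in WT at day 2 without cytokines, 3484 and 2054 in WT at day 6 without cytokines, and 46.6 and 48.3 in WT at day 6 with cytokines. TKO EpiLCs had 159 and 64.9 and TKO day 2 cells 156 and 260 without cytokines and 68.0 and 29.8 with them. TKO day 6 cells had 378 and 366 without cytokines and 118 and 34.4 with them. The 3 highest conditions, WT day 6, WT day 2 and TKO day 6, all without cytokines, did not overlap with the next below. The 5 conditions below TKO day 2 without cytokines, from WT EpiLCs down to WT day 6 with cytokines, each overlapped with the next above.

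Vim (chr2:13573927-13582826, + strand) had 15790 and 25110 normalised counts in WT at day 6 without cytokines. It had 675 and 699 in WT EpiLCs, 2180 and 2606 in WT at day 2 without cytokines, and 502 and 709 in WT at day 6 with cytokines. In TKO it was lowest in EpiLCs, at 422 and 470, and reached 2167 and 3968 at day 2 and 3658 and 4541 at day 6 without cytokines. With cytokines it was lower in TKO, 922 and 534 at day 2, then 2058 and 766 at day 6. Vim was thus higher without cytokines than with them at each time in TKO, with no overlap between the libraries.

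Fn1 (chr1:71585520-71653200, - strand) was ordered differently from Cdh2 and Vim. Its highest level was in WT at day 6 with cytokines, at 20657 and 26648 normalised counts, where Cdh2 and Vim were low. It had 4879 and 3961 in WT EpiLCs, 5500 and 2175 in WT at day 2 without cytokines and 2950 and 2470 in WT at day 6 without cytokines. These 3 conditions and TKO EpiLCs (2802 and 5200) overlapped in the order of their means. All 8 TKO aggregate libraries lay above them, between 7927 and 17480. Apol7d overlaps the start of Fn1 on the other strand and had at most 35 raw counts in any library, so that the sum of Fn1 is far larger than that of its neighbour.

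Among the repressors, Zeb1 (chr18:5591860-5775467, + strand) had 32.1 and 7.78 normalised counts in WT EpiLCs, 425 and 183 in WT at day 2 without cytokines, 2229 and 1624 in WT at day 6 without cytokines and 337 and 369 in WT at day 6 with cytokines. TKO EpiLCs had 25.8 and 31.9 and TKO day 2 cells 96.5 and 106 without cytokines and 39.7 and 53.4 with them. TKO day 6 cells had 433 and 242 without cytokines and 408 and 348 with them. Zeb1 was therefore above EpiLC levels in the aggregates of both genotypes by day 6, with or without cytokines, and WT day 6 without cytokines did not overlap with any other condition. Gm10125, which overlaps the start of Zeb1 on the other strand, had at most 87 raw counts.

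Zeb2 (chr2:44983632-45117395, - strand) was low in all libraries with cytokines and in EpiLCs. It had 17.7 and 12.8 normalised counts in WT EpiLCs, 1839 and 1223 in WT at day 2 and 2097 and 1530 in WT at day 6 without cytokines, and 14.6 and 17.4 in WT at day 6 with cytokines. TKO EpiLCs had 14.9 and 4.40. Without cytokines TKO aggregates held 204 and 288 at day 2, then 277 and 328 at day 6. With them they held 53.3 and 34.8 at day 2, then 65.5 and 41.3 at day 6. The levels thus fell into WT without cytokines, TKO without cytokines, TKO with cytokines and a lowest set of WT with cytokines and the EpiLCs, and neighbours overlapped within these sets but not between them. Zeb2os lies within Zeb2 on the other strand (chr2:45110707-45114087), and it had 71 to 86 raw counts in the 4 WT libraries without cytokines and 0 in the other 14. Reads that overlapped exons of both genes were in neither count, and reads in an exon of 1 of them were assigned to it whichever strand they came from.

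Snai1 (chr2:167538195-167542814, + strand) and Snai2 (chr16:14705852-14709385, + strand), which encode SNAIL and SLUG, were much lower in counts. Snai1 had its highest level in TKO at day 6, with 178 and 124 normalised counts with cytokines and 65.7 and 95.9 without, and these conditions did not overlap with each other or with the rest. In WT it had 22.5 and 22.2 in EpiLCs, 58.5 and 46.6 at day 2 without cytokines, 14.1 and 49.8 at day 6 without cytokines and 16.7 and 34.7 at day 6 with cytokines. Its other TKO libraries had 21.8 and 17.6 in EpiLCs, 38.4 and 50.5 at day 2 without cytokines and 46.5 and 38.5 at day 2 with them. Snai2 was between 0 and 18.3 normalised counts in all libraries, with sums over 2 libraries between 3 and 33 raw counts, so that its values carry a large counting error. Its 4 highest conditions were TKO day 6 without and with cytokines, TKO day 2 without cytokines and WT day 6 with cytokines, and each overlapped with the next.

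**Figure D1:**
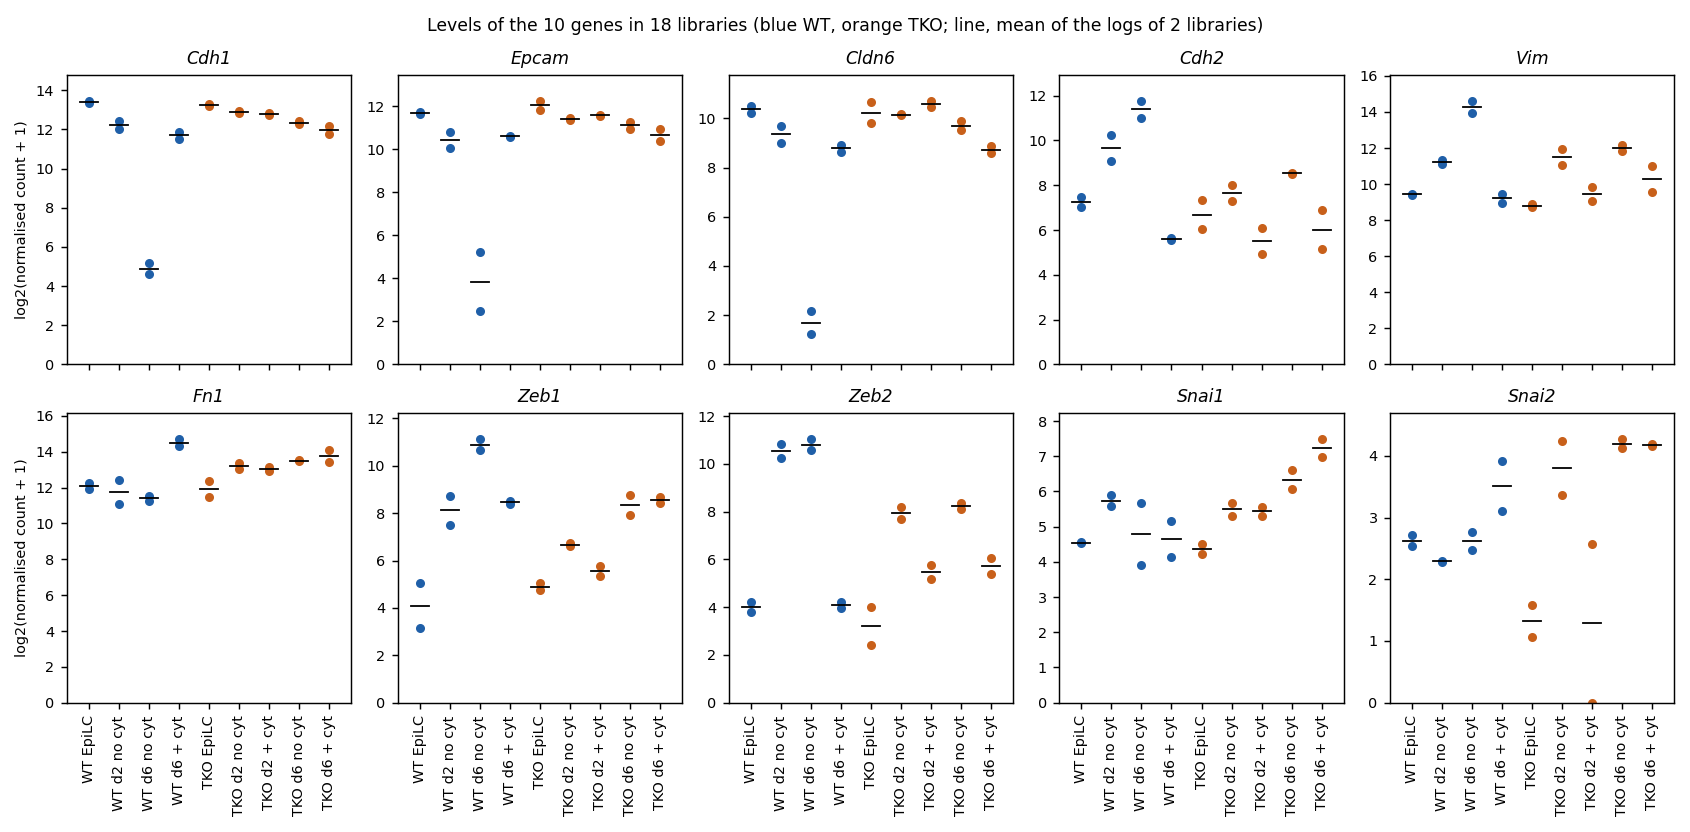
Level of each of the 10 genes by condition, with log2 of the normalised count + 1 on the vertical axis and the 9 conditions on the horizontal axis (EpiLC, EpiLCs; d2 and d6, days; cyt, cytokines). Points are libraries (2 per condition, blue WT, orange TKO) and lines are means of the log values; Cdh1, Epcam and Cldn6 drop in WT at day 6 without cytokines, where Cdh2, Vim and Zeb1 are at their highest.

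The ratio of Cdh1 to Cdh2 counts within a library does not depend on how the libraries are scaled. Cdh1 exceeded Cdh2 in 16 of 18 libraries, and the 2 exceptions were both WT day 6 libraries without cytokines, with 148 and 59.1 counts of Cdh2 for each count of Cdh1. The log2 ratio was 6.17 ± 0.41 (SD, n = 2) in WT EpiLCs, 2.57 ± 1.12 in WT at day 2, -6.55 ± 0.93 in WT at day 6 without cytokines and 6.13 ± 0.20 in WT at day 6 with them. TKO stayed on the Cdh1 side throughout, with 6.59 ± 0.84 in EpiLCs, 5.23 ± 0.48 at day 2 and 3.80 ± 0.15 at day 6 without cytokines, and 7.30 ± 0.92 at day 2 and 5.99 ± 1.52 at day 6 with cytokines. TKO day 6 libraries without cytokines (3.70 and 3.91) lay below all other TKO libraries (4.90 to 7.95), and above both WT day 2 libraries (1.77 and 3.36).

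**Figure D2:**
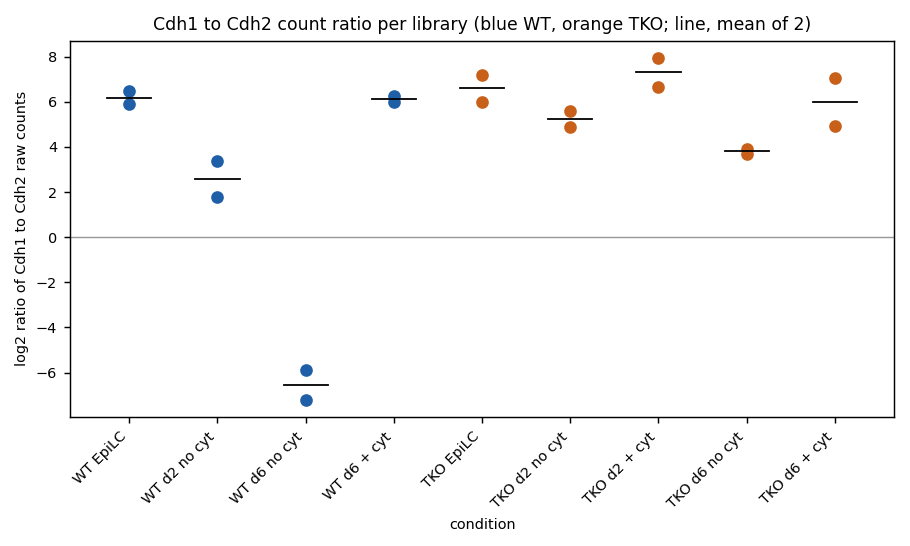
log2 ratio of Cdh1 to Cdh2 raw counts (vertical axis) by condition (horizontal axis), with a point for each library and a line at the mean of the 2 libraries (blue WT, orange TKO; the grey line marks equal counts). Only the WT day 6 libraries without cytokines, at -7.21 and -5.89, are below 0.

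Per kilobase of merged exons (4.574 kb for Cdh1 and 8.066 kb for Cdh2 in GENCODE vM21), Cdh1 was below Cdh2 only in the 2 libraries of WT day 6 without cytokines. The lengths are from GENCODE, whereas the counts were made over RefSeq exons. Division by a fixed length cannot change the order of the libraries for either gene. WT EpiLCs had 2359 ± 142 normalised counts per kb of Cdh1 and 18.8 ± 4.1 of Cdh2 (SD, n = 2), and WT day 6 cells without cytokines had 6.37 ± 1.73 of Cdh1 and 343 ± 125 of Cdh2. TKO day 6 cells without cytokines had 1137 ± 93 per kb of Cdh1 and 46.1 ± 1.0 of Cdh2. Cdh2 was higher in these TKO cells than in EpiLCs, as in the counts, while Cdh1 per length remained the larger.

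In WT cells without cytokines, the 3 epithelial genes fell much more after day 2 than before it, and Vim rose more after it. Zeb2 rose mostly before day 2, and the estimates for Zeb1 and Cdh2 were also larger over those first days. From EpiLCs to day 2, 7 of the 10 genes were called, against 34.4% of all genes tested. Zeb2 rose most (log2 fold change 6.76 ± 0.41 SE, edgeR adjusted p = 1.46e-07), followed by Zeb1 (4.26 ± 0.52, adjusted p = 2.86e-05), Cdh2 (2.58 ± 0.52, adjusted p = 0.00152) and Vim (1.85 ± 0.41, adjusted p = 0.00274). Cdh1 fell by 1.11 ± 0.20 on the log2 scale (adjusted p = 0.000751), and Epcam (-1.15 ± 0.40) and Cldn6 (-0.93 ± 0.28) fell with adjusted p of 0.0358 and 0.0167. At this time the rise of Zeb2 was the 60th largest of 16582, while the fall of Cdh1 was the 2094th largest fall. The Epcam call was lost without any of 5 libraries and that of Cldn6 without either of 2, with adjusted p of up to 0.274 and 0.196, in each case highest without WT day 2 replicate 1.

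From day 2 to day 6 without cytokines, 6 of the 10 genes were called in WT cells, with 39.5% of all genes called. Cdh1 fell by 7.47 ± 0.28 on the log2 scale (edgeR adjusted p = 6.23e-10). Epcam was at -6.52 ± 0.55 (edgeR adjusted p = 5.11e-07). For Cldn6, 1593 counts in the 2 day 2 libraries stood against 6 at day 6, a ratio of 352 after scaling with a 95% counting interval of 162 to 961 (edgeR adjusted p = 1.32e-08). Vim (3.05 ± 0.42, adjusted p = 4.88e-05), Zeb1 (2.63 ± 0.42, adjusted p = 0.00016) and Cdh2 (1.63 ± 0.49, adjusted p = 0.0149) rose further. Zeb2 was at 0.20 ± 0.29 (edgeR adjusted p = 0.614). The Cdh2 call was lost without WT day 2 replicate 2 (adjusted p = 0.148) or WT day 6 replicate 1, and in a model of only these 4 libraries (adjusted p = 0.0719). Over the whole course from EpiLCs to day 6, 7 of 10 genes were called with 60.7% of all genes. Cdh1 (-8.58 ± 0.29, adjusted p = 1.41e-10), Epcam (-7.67 ± 0.57) and Cldn6 were lower. Zeb2 (6.96 ± 0.41), Zeb1 (6.89 ± 0.55), Vim (4.90 ± 0.46) and Cdh2 (4.22 ± 0.55) were higher. Fn1 was at -0.70 ± 0.36 (adjusted p = 0.106), Snai1 at 0.44 ± 0.53 (adjusted p = 0.492) and Snai2 at -0.07 ± 0.75 (adjusted p = 0.945).

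Of the markers of other cell types, the neural sum moved with these changes, and the other sums did not all do so. The summed level of 8 neural markers was 1663 to 1971 normalised counts in WT EpiLCs, 8680 to 9290 in WT at day 2 without cytokines and 47900 to 53096 in WT at day 6 without cytokines, with all 8 detected. It was 675 to 790 in WT at day 6 with cytokines and 462 to 2696 over the TKO libraries. The sum of 5 neural crest markers was 1744 to 2561 in WT EpiLCs and lower, at 234 to 466, in WT at day 2 without cytokines. In WT at day 6 without cytokines this sum was 5430 to 5806, above the 220 to 2561 of all remaining libraries. That of 8 mesoderm markers was 105 to 109 in the same libraries (Hand2 at 0), within its range of 48.9 to 384 over all others. That of 6 endoderm markers was 9.26 to 73.9 (Cer1 and Afp at 0) against 13.3 to 538. The sum of 7 fibroblast and stroma markers was 570 to 1030 in WT at day 6 without cytokines and highest in TKO at day 6 without cytokines, at 2793 to 2824. The sum of 7 markers of surface epithelium or trophoblast was 126 to 347 (Krt5, Krt14 and Trp63 at 0) against 26.7 to 43.4 in WT EpiLCs and 769 to 825 in WT at day 6 with cytokines. That of 4 formative markers was 52892 to 57810 in WT EpiLCs and 743 to 1551 in WT at day 6 without cytokines. In whole aggregates, fewer cells of a type and less RNA per cell cannot be told apart, and the part of these markers' cells in the changes was not tested.

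With cytokines, WT cells at day 6 differed from EpiLCs in fewer of the genes, and 5 of 10 were called with 40.6% of all genes. Zeb1 (4.48 ± 0.52 SE, edgeR adjusted p = 1.35e-05) and Fn1 (2.47 ± 0.38, adjusted p = 0.000139) were higher in the sorted PGCLCs. Cdh1 (-1.65 ± 0.21, adjusted p = 2.55e-05), Cldn6 (-1.54 ± 0.28, adjusted p = 0.000572) and Cdh2 (-1.61 ± 0.54, adjusted p = 0.028) were lower. Epcam, at -1.03 ± 0.40, had an adjusted p of 0.0503, which passed the threshold under 6 of the other settings. Zeb2 was at 0.19 ± 0.45 (adjusted p = 0.769). The Cdh2 call was lost without any of the 4 libraries compared, with adjusted p of up to 0.119 without WT EpiLC replicate 1. CD61, used for the sort, is the product of Itgb3, which was 490 normalised counts in these cells and 7.91 in WT EpiLCs. In TKO, whose cells were not sorted, Itgb3 was at 18.4 in EpiLCs, 175 at day 2 with cytokines and 301 at day 6 without them.

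Between WT day 6 cells with and without cytokines, 8 of the 10 genes were called and all 8 differed by more than 2 on the log2 scale, with 58.2% of all genes called. Cdh1 (6.93 ± 0.28 SE, edgeR adjusted p = 2.39e-10), Epcam (6.65 ± 0.55, adjusted p = 9.94e-08) and Fn1 (3.16 ± 0.39, adjusted p = 5.42e-06) were higher with cytokines. Cldn6 had 1336 counts against 6, a ratio of 228 with a 95% counting interval of 105 to 624 (adjusted p = 4.95e-09). Zeb2 (-6.77 ± 0.40, adjusted p = 3.32e-09), Cdh2 (-5.83 ± 0.60, adjusted p = 9.13e-07), Vim (-5.04 ± 0.46, adjusted p = 2.8e-07) and Zeb1 (-2.41 ± 0.41, adjusted p = 0.000135) were lower. The sum of 6 early germ cell markers was 7399 to 9210 with cytokines and 108 to 112 without, and the sort and the cytokines cannot be told apart in this comparison.

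Between TKO and WT EpiLCs none of the 10 genes was called by edgeR's quasi-likelihood test, none had an unadjusted p below 0.05 and none was called by DESeq2, while 10.8% of all genes were called by edgeR. Log2 fold changes lay between -1.67 ± 0.94 (Snai2, 3 counts in TKO against 13 in WT) and 0.86 ± 0.59 (Zeb1). Cdh1 was at -0.11 ± 0.20 SE (edgeR adjusted p = 0.777) and Cdh2 at -0.38 ± 0.53 (adjusted p = 0.696). No difference in these genes was detectable between the starting cells at this depth and replication.

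Without cytokines the genotypes separated with time. At day 2, 5 of 10 genes were called with 32.8% of all genes. Zeb2 (-2.67 ± 0.31 SE, edgeR adjusted p = 1.76e-05), Cdh2 (-2.10 ± 0.51, adjusted p = 0.00558) and Zeb1 (-1.61 ± 0.43, adjusted p = 0.00953) were lower in TKO. Fn1 (1.30 ± 0.36, adjusted p = 0.0127) and Cdh1 (0.62 ± 0.20, adjusted p = 0.0295) were higher. Epcam (0.89 ± 0.40, adjusted p = 0.0971) and Cldn6 (0.72 ± 0.28, adjusted p = 0.056) did not pass. Of these calls that of Zeb2 held with any library left out. Cdh1, Cdh2, Fn1 and Zeb1 each lost theirs without 2 or 3 of the libraries compared, with adjusted p of up to 0.251 (Cdh1, without WT day 2 replicate 1).

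At day 6 without cytokines all 10 genes were called between TKO and WT, with 55.4% of all genes called. Cdh1 (7.55 ± 0.28 SE, edgeR adjusted p = 2.77e-10), Epcam (7.14 ± 0.56, adjusted p = 7.72e-08) and Fn1 (2.12 ± 0.37, adjusted p = 0.000216) were higher in TKO. Cldn6 had 1428 counts against 6, a ratio of 424 with a 95% counting interval of 195 to 1159. Cdh2 (-2.88 ± 0.51, adjusted p = 0.000248), Zeb2 (-2.57 ± 0.31, adjusted p = 7.04e-06), Zeb1 (-2.49 ± 0.42, adjusted p = 0.000136) and Vim (-2.30 ± 0.41, adjusted p = 0.000233) were lower. Snai1 (1.42 ± 0.51, adjusted p = 0.0275) and Snai2 (1.79 ± 0.70, adjusted p = 0.0397) were higher in TKO, opposite to the ZEB genes. Snai1 lost its call without WT day 6 replicate 1 (adjusted p = 0.217) or TKO day 6 replicate 2 and in a model of only these 4 libraries (adjusted p = 0.165). Snai2 lost it without any of 14 libraries and with DESeq2 or no filter (edgeR adjusted p of up to 0.163). The other 8 calls held under every alternative. Neural markers, at 47900 to 53096 in WT and 2280 to 2692 in TKO, differed between these libraries as well. The sum of early germ cell markers differed the other way, at 108 to 112 in WT and 3119 to 3294 in TKO. The part of either set in the difference was not tested.

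The difference between genotypes in the change from EpiLCs was tested as an interaction. To day 2 without cytokines, 2 of 10 genes were called with 12.3% of all genes. For Zeb1 (-2.46 ± 0.72 SE, edgeR adjusted p = 0.0371) and Zeb2 (-2.14 ± 0.63, adjusted p = 0.0365) the rise in TKO was smaller than in WT. Both calls were lost without any of 5 or 6 libraries (adjusted p of up to 0.211 for Zeb1 without WT EpiLC replicate 2 and 0.571 for Zeb2 without TKO EpiLC replicate 1). To day 6, 9 of 10 genes were called with 37.0% of all genes, and Cdh1 (7.67 ± 0.34, adjusted p = 6.02e-09) and Epcam (6.74 ± 0.67, adjusted p = 2.79e-06) differed most beside Cldn6. Fn1 (2.23 ± 0.51, adjusted p = 0.00326) and Zeb1 (-3.34 ± 0.71, adjusted p = 0.00188) also held with any library left out. Cdh2, Vim, Zeb2 and Snai2 lost their calls without any of 2 to 7 libraries, with the highest adjusted p, 0.495, for Zeb2 without TKO EpiLC replicate 1.

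Within TKO cells without cytokines Vim, Fn1, Zeb1, Zeb2 and Snai2 rose by day 2, and no epithelial member was called. By that day 5 of 10 genes were called, all higher, with 18.7% of all genes. They were Zeb2 (4.62 ± 0.42 SE, edgeR adjusted p = 8.73e-06), Vim (2.77 ± 0.42, adjusted p = 0.000612), Zeb1 (1.80 ± 0.49, adjusted p = 0.0209), Fn1 (1.25 ± 0.36, adjusted p = 0.0274) and Snai2. Snai2 had 24 counts at day 2 and 3 in EpiLCs, a ratio of 8.54 with a 95% counting interval of 2.59 to 44.3 (edgeR adjusted p = 0.0271). Cdh1 was at -0.38 ± 0.20 (adjusted p = 0.196) and Cdh2 at 0.87 ± 0.52 (adjusted p = 0.257). Fn1, Zeb1 and Snai2 each lost their call without any of 3 or 4 libraries, with adjusted p of up to 0.193 (Fn1, without TKO EpiLC replicate 1). From day 2 to day 6 no gene of the 10 was called by edgeR, where 0.476% of all genes were, 2 had an unadjusted p below 0.05, and DESeq2 called 1. A model of only these 4 libraries called 4 (2 higher and 2 lower at day 6), among them Zeb1, which was at 1.75 ± 0.43 in the model of all libraries (adjusted p = 0.109). The 2 conditions compared had the smallest spread between libraries of all conditions, and the model of all libraries pools it with larger ones. The lack of calls in that model therefore does not show that these genes stayed unchanged in TKO after day 2.

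With cytokines Zeb2 and Vim were lower in TKO cells at both times and Cdh2 at day 6, and no epithelial member passed edgeR's test. At day 2, 2 of 10 genes were called with 4.52% of all genes, Zeb2 (-2.46 ± 0.35 SE, edgeR adjusted p = 0.00168) and Vim (-2.06 ± 0.41, adjusted p = 0.0121). Cdh2 was at -2.05 ± 0.57 (edgeR adjusted p = 0.0518, and past the threshold under 5 of the other settings). At day 6, 3 of 10 were called with 5.61% of all genes, Zeb2 (-2.51 ± 0.35, adjusted p = 0.00119), Cdh2 (-2.33 ± 0.55, adjusted p = 0.0255) and Vim (-1.52 ± 0.40, adjusted p = 0.0386). Cdh1 was at -0.33 ± 0.20 (adjusted p = 0.35) and Epcam at -0.41 ± 0.40 (adjusted p = 0.575). Cldn6 was at -0.96 ± 0.28 (edgeR adjusted p = 0.0573), with no overlap between the libraries. It passed the threshold with DESeq2, where 4 members were called, under 3 other settings and without any of 6 libraries. At each time the Zeb2 call held with any library left out. Those of Vim and Cdh2 were lost without any of 3 to 5 libraries, with edgeR adjusted p of up to 0.15 at day 2 (Vim, without TKO day 2 replicate 2 without cytokines) and 0.191 at day 6 (Vim, without TKO day 6 replicate 2 without cytokines). The effect of cytokines at day 6 differed between the genotypes in 8 of 10 genes by the interaction test, with 42.9% of all genes called. These 8 held under every alternative. WT cells with cytokines had been sorted and TKO cells had not, so cytokines and the sort cannot be told apart in this test. The difference between the genotypes was -7.27 ± 0.33 for Cdh1 (edgeR adjusted p = 4.05e-09), -7.06 ± 0.67 for Epcam, and -2.85 ± 0.52 for Fn1. It was 4.27 ± 0.51 for Zeb2, 3.52 ± 0.57 for Vim, 3.50 ± 0.77 for Cdh2 and 2.58 ± 0.57 for Zeb1. A negative value means a smaller rise, or a fall, in TKO.

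TKO cells with cytokines were set against EpiLCs and over time. Between EpiLCs and day 2, 1 of 10 genes was called with 14.3% of all genes, Zeb2 (2.16 ± 0.46 SE, edgeR adjusted p = 0.00561). This call was lost without TKO EpiLC replicate 2 or TKO day 2 replicate 1 with cytokines (adjusted p = 0.068) and in a model of only these 4 libraries. From day 2 to day 6, 4 of 10 were called with 6.00% of all genes. Zeb1 (3.03 ± 0.47, adjusted p = 0.00144) and Snai1 (1.83 ± 0.51, adjusted p = 0.0458) rose. Cldn6 (-1.86 ± 0.29, adjusted p = 0.00144) and Cdh1 (-0.79 ± 0.20, adjusted p = 0.0323) fell. Snai1 lost its call without any of 14 libraries (adjusted p of up to 0.221, without TKO day 2 replicate 1 with cytokines) and Cdh1 without any of 6 (up to 0.194, without TKO day 6 replicate 1 with cytokines).

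Against the sorted WT PGCLCs of day 6, TKO cells with cytokines of the same day differed in 3 of 10 genes, all higher in TKO, with 18.9% of all genes called. Snai1 (2.54 ± 0.51 SE, edgeR adjusted p = 0.00342), Zeb2 (1.70 ± 0.40, adjusted p = 0.00877) and Vim (1.21 ± 0.40, adjusted p = 0.0464) were the 3. Cdh1, at 0.29 ± 0.20 (adjusted p = 0.353), Cdh2, at 0.62 ± 0.58 (adjusted p = 0.497), and Zeb1, at 0.09 ± 0.40 (adjusted p = 0.905), did not pass. The sum of early germ cell markers was 3030 to 3638 in these TKO cells and 7399 to 9210 in the sorted WT PGCLCs. None of the 3 calls held with every library left out. Without WT day 6 replicate 1 with cytokines none was called (Snai1 adjusted p = 0.065), and Vim had an edgeR adjusted p of 0.669 without TKO day 6 replicate 1 with cytokines. TKO cells with cytokines at day 2 differed from the same WT PGCLCs in 5 of 10 genes, with 19.9% of all genes called, and here the days differ as well. Cldn6 (1.79 ± 0.28, adjusted p = 0.000653), Zeb2 (1.45 ± 0.40, adjusted p = 0.0204) and Cdh1 (1.08 ± 0.20, adjusted p = 0.0023) were higher in TKO. Zeb1 (-2.93 ± 0.46, adjusted p = 0.000644) and Fn1 (-1.50 ± 0.36, adjusted p = 0.0104) were lower. The calls of Fn1 and Zeb2 were lost without TKO day 2 replicate 1 with cytokines (edgeR adjusted p of 0.0926 and 0.199).

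**Figure D3:**
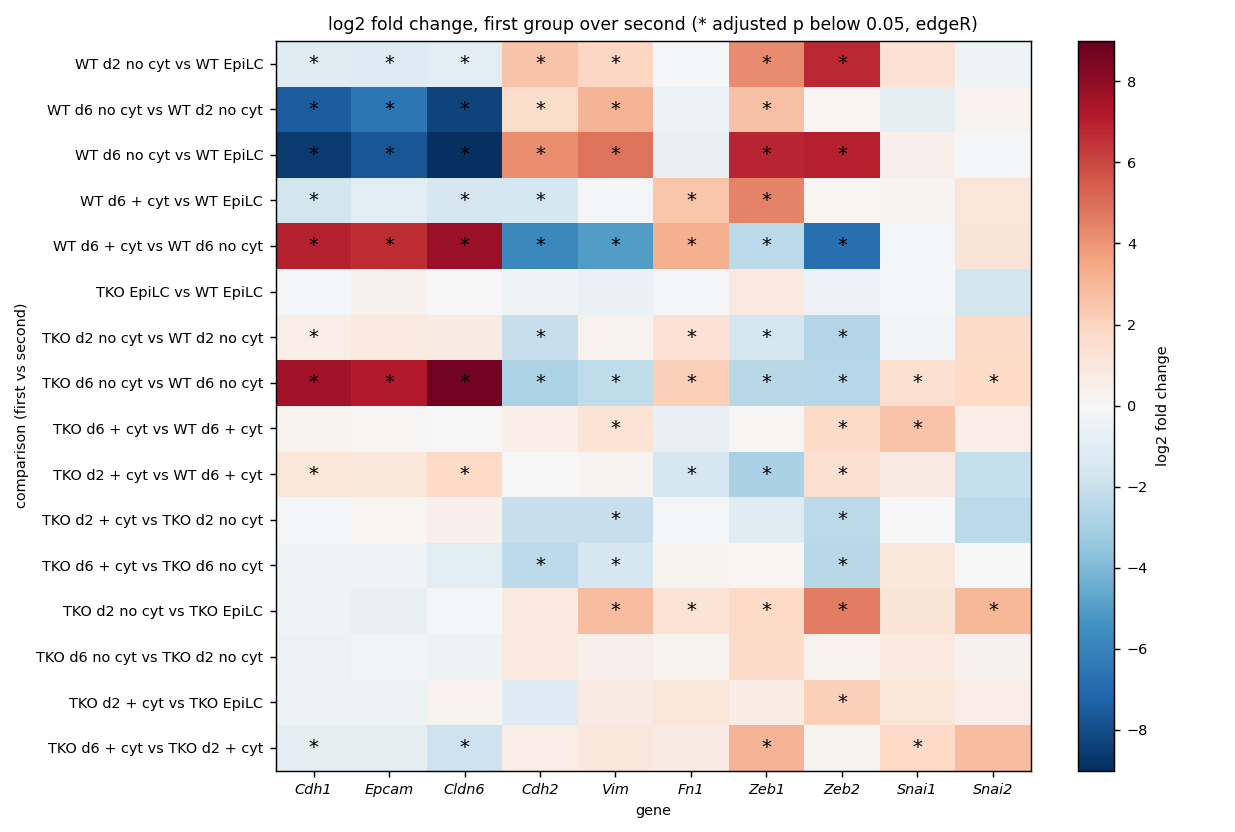
log2 fold change of the 10 genes (horizontal axis) in the 16 comparisons of groups (vertical axis, first group over second), by colour, with an asterisk where the edgeR adjusted p is below 0.05. The 3 epithelial genes and Cdh2, Vim, Zeb1 and Zeb2 have opposite colours in WT without cytokines and in the comparisons of WT day 6 without cytokines with TKO or with cytokines.

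A list of 40 other epithelial genes (claudins, desmosomal and polarity genes and their regulators) was described by the same tests. From EpiLCs to day 6 in WT cells without cytokines 38 of 40 were lower and 0 higher, with a median log2 fold change of -3.73 where undetected genes were set at their bound (0.05 over all genes, of which 60.7% were called). Esrp1, an epithelial splicing regulator, went from 1846 to 2.52 normalised counts, and Ap1m2, a subunit of the epithelial sorting adaptor, from 429 to 1.26. Between day 6 WT cells with and without cytokines 35 of 40 were higher with them (median 3.44, with 58.2% of all genes called), and between TKO and WT at day 6 without cytokines 39 of 40 were higher in TKO (median 3.77, with 55.4% of all genes called). Cldn4, a claudin, was 1412 normalised counts in TKO and 5.62 in WT in the latter comparison. At day 2 the list was mixed in WT: 17 were lower than in EpiLCs and 5 higher, with 34.4% of all genes called. Among those that fell was Grhl2, a transcription factor of epithelia (-2.33 ± 0.23 SE, edgeR adjusted p = 3.62e-06). Among those that rose were the keratin gene Krt19 (3.82 ± 0.33, adjusted p = 1.19e-06) and Dsp, which encodes desmoplakin (3.35 ± 0.24, adjusted p = 3.12e-07).

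In TKO cells 5 of the epithelial list were higher and 4 lower from EpiLCs to day 2 without cytokines (median -0.03), with 18.7% of all genes called, so that the share in the list was near that of all genes. From day 2 to day 6, with 0.476% of all genes called, 0 were higher and 1 lower, Grhl2 (-1.22 ± 0.22 SE, edgeR adjusted p = 0.0178). With cytokines 12 were higher and 2 lower from EpiLCs to day 2, where 14.3% of all genes were called. From day 2 to day 6 with cytokines 1 was higher and 18 lower (median -0.98), where 6.00% of all genes were called. TKO and sorted WT PGCLCs at day 6 differed in 13 members of the list in both directions, 6 higher and 7 lower in TKO (median -0.09), with 18.9% of all genes called. Krt8 (3.35 ± 0.60, edgeR adjusted p = 0.00151) and Krt18 (2.78 ± 0.72, adjusted p = 0.0144), the keratin pair of simple epithelia, were higher in TKO. The small GTPase gene Rab25 (-2.37 ± 0.47, adjusted p = 0.0031) and Esrp1 (-1.70 ± 0.28, adjusted p = 0.000834) were lower.

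Of 34 other mesenchymal and EMT genes 33 were tested. From EpiLCs to day 2 in WT without cytokines 20 were higher and 2 lower (median 1.76), with 34.4% of all genes called. From day 2 to day 6 there were 5 higher and 8 lower (median -0.14), a share of the list near the 39.5% of all genes called. Tagln (transgelin, an actin-binding protein of smooth muscle) fell from 5515 to 107 normalised counts over these days (-5.83 ± 0.76 SE, edgeR adjusted p = 2.79e-05), and Thy1, a surface glycoprotein, from 136 to 0.68. In TKO without cytokines 14 were higher and 1 lower from EpiLCs to day 2 (median 1.13), with 18.7% of all genes called. With cytokines 6 were higher and 2 lower in TKO by day 2 (median 0.59), where 14.3% of all genes were called. Sorted WT PGCLCs of day 6 had 11 higher and 3 lower than WT EpiLCs (median 0.69), near the 40.6% of all genes called. Between TKO and WT at day 6 without cytokines 14 were higher and 6 lower in TKO (median 0.90), a share of the list close to the 55.4% of all genes called. Tnc, which encodes the matrix protein tenascin C (4.77 ± 0.80, edgeR adjusted p = 0.000149), was higher and Cdh11 (-2.79 ± 0.73, adjusted p = 0.00458) lower. The collagen gene Col1a1 was lower with cytokines in TKO at day 2 (-4.35 ± 0.63, adjusted p = 0.00182) and day 6 (-3.43 ± 0.59, adjusted p = 0.00479).

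**Figure D4:**
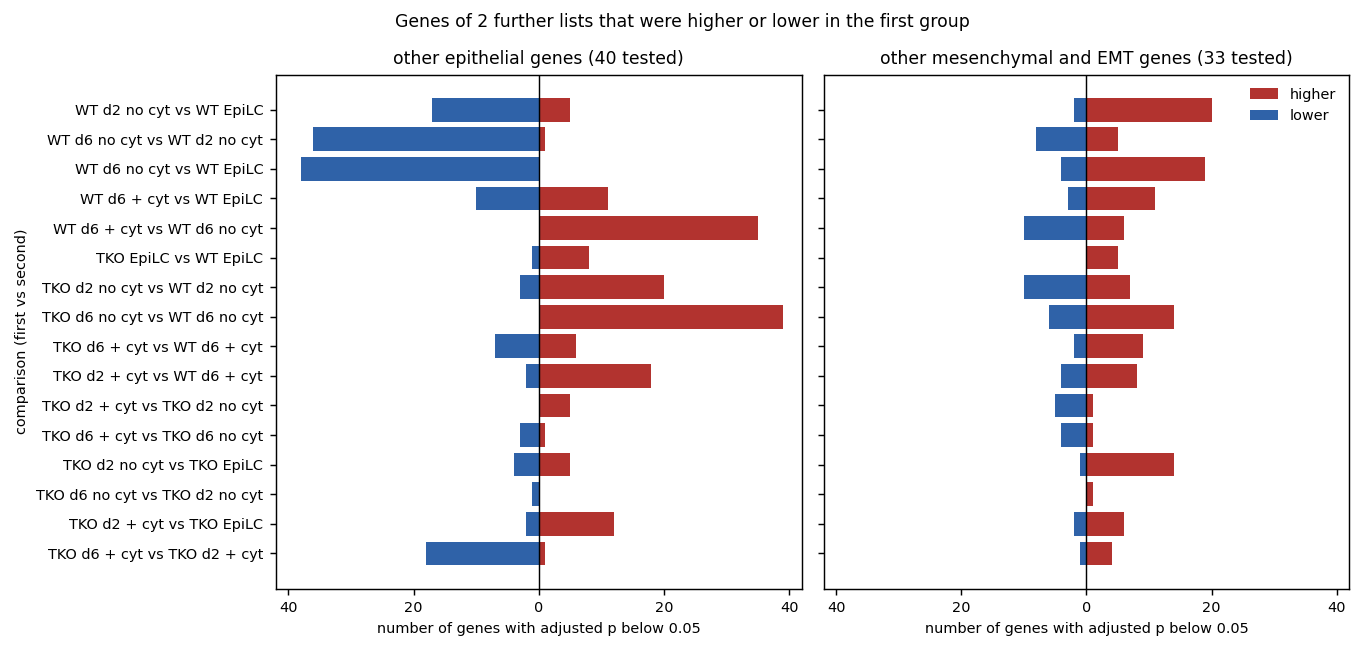
Number of genes (horizontal axis) of the other epithelial list (left, 40 tested) and the other mesenchymal and EMT list (right, 33 tested) that were higher (red, to the right) or lower (blue, to the left) in the first group of each of 16 comparisons (vertical axis; edgeR adjusted p below 0.05). In WT from EpiLCs to day 6 without cytokines 38 epithelial genes were lower, and 39 were higher in TKO than in WT at day 6 without cytokines.

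Other cadherins also changed in WT cells without cytokines. Of 20 listed genes 16 were tested, and 11 were higher and 3 lower at day 6 than in EpiLCs, with 60.7% of all genes called. Cdh6, at 0.28 normalised counts in EpiLCs and 448 at day 6, and Cdh11 (7.05 ± 0.99 SE, edgeR adjusted p = 1.89e-05) were higher, and Cdh3 (P-cadherin, an epithelial cadherin) was lower (-6.70 ± 0.52, adjusted p = 5.83e-08). TKO cells at day 6 without cytokines had 2 of the 16 higher and 10 lower than WT, with 55.4% of all genes called. Cdh3 was at 909 against 6.34 normalised counts, and Cdh4 (-3.04 ± 0.50, adjusted p = 0.000131) and Cdh22 (-4.31 ± 0.55, adjusted p = 1.1e-05) were lower. Cdh6 was lower with cytokines in TKO at day 2 (-5.07 ± 0.86, adjusted p = 0.00539) and at day 6 (-4.51 ± 0.79, adjusted p = 0.00528). Of 9 catenins and partners, which link cadherins to actin, 8 were tested and 3 rose and 4 fell in WT from EpiLCs to day 6 without cytokines, where 60.7% of all genes were called. The neural forms Ctnna2 (6.48 ± 0.64, adjusted p = 5.99e-07) and Ctnnd2 (4.31 ± 0.35, adjusted p = 8.95e-08) were among the first, and Jup, which encodes plakoglobin (-1.95 ± 0.20, adjusted p = 1.09e-06), among the second. All 6 fibronectin-binding integrin genes were tested, of which 5 were higher and 0 lower in TKO than in WT at day 6 without cytokines (55.4% of all genes called) and 1 and 0 with them (18.9% called). Itga5 was higher in TKO than in WT at day 6 both without cytokines (2.24 ± 0.16, adjusted p = 3.55e-08) and with them (1.30 ± 0.16, adjusted p = 7.1e-05).

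Over the 9 condition means of log2 CPM (counts scaled to library size), the 3 genes most like Cdh1 of 11996 compared were Epcam (Pearson r = 0.996), Cldn6 (0.994) and Grb7 (0.992). Those most like Cdh2 were Cxxc4 (0.992), Nbea (0.990) and Mfap2 (0.989). Vim (0.876) and Zeb2 (0.864) were the members nearest to Cdh2, and Fn1 was at -0.666 with Cdh2 and 0.360 with Cdh1. Cdh1 and Cdh2 had an r of -0.696. These values describe 9 points that share libraries and genotypes and among which WT day 6 without cytokines stands far from the rest.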

How the data were processed

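RNA was depleted of ribosomal RNA and directional libraries were sequenced, and by the submitters' processing notes and the study's methods reads were trimmed (Trim Galore 0.5.0, cutadapt 1.16), aligned to mm10 (STAR 2.7.1a) and counted over RefSeq exons (Subread 1.5.2) without use of the strand, leaving out reads that map or overlap more than once. The authors deposited these raw counts per gene for 18 libraries, and 33 rows of the table without values were left out.

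The counts were tested as deposited with edgeR 4.0.16 (quasi-likelihood, TMM scaling, filterByExpr, R 4.3.3) in 1 model of 9 group means, and p-values were adjusted by Benjamini-Hochberg over 16582 genes, with 0.05 as threshold. The SE is the log2 fold change over the root of its F statistic, an approximation. Levels are counts divided by DESeq2 1.42.0 size factors, given per library or as mean ± SD (n = 2). Libraries held 11286050 to 41257861 counts, and counting intervals (95%, exact) cover counting error only. Coordinates are from GENCODE vM21 (GRCm38), and promoters from RefSeq.

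Members and gene lists were chosen with earlier results of these data known, and the promoter search of the E-box was described without a test. The text names all 10 members and, as examples of each list, genes among the 2 highest and 2 lowest called log2 fold changes with a mean of at least 50 normalised counts over all libraries, with the Tet genes and Rn45s as checks and the 3 genes most like Cdh1 and Cdh2. The lists were other epithelial genes, other mesenchymal and EMT genes, other cadherins, catenins and fibronectin-binding integrins, and 8 lists of cell type markers. They share genes and are not independent of each other. Cdh3 (a cadherin) and Jup (a catenin) are also in the epithelial list, and Cdh11 is also in the mesenchymal list. Grhl3, Col1a1, Col1a2, Col3a1, Pdgfra and Pdgfrb are also among the cell type markers. Counts of 16582 genes were also simulated at each gene's mean level over all libraries, with known changes in TKO EpiLCs alone. Tested against WT EpiLCs, 21% of changes of 1 and 70% of changes of 2 on the log2 scale were recovered (100 each), with 6 false calls. These shares do not hold for genes that are lower in EpiLCs than over all libraries, such as Zeb1 and Zeb2. Alternatives were other scalings, filters, tests and sets of libraries, a replicate block and leaving out each library. Replicate numbers did not pair the libraries.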

Additional observations from a re-analysis of the deposited data

Results flagged for a closer look

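The change from EpiLCs to aggregates without cytokines, or the effect of cytokines at day 6, differed between TKO and WT cells in the following genes by edgeR's interaction test. Values are differences in log2 fold change, TKO minus WT.

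From EpiLCs to day 2 the difference was -2.46 for Zeb1 and -2.14 for Zeb2. From EpiLCs to day 6 it was 7.67 for Cdh1, 6.74 for Epcam and 8.71 for Cldn6 among the epithelial genes, -2.49 for Cdh2, -1.70 for Vim and 2.23 for Fn1 among the mesenchymal genes, and -3.34 for Zeb1, -2.04 for Zeb2 and 3.45 for Snai2 among the repressors.

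For the effect of cytokines at day 6 it was -7.27 for Cdh1, -7.06 for Epcam and -8.73 for Cldn6, 3.50 for Cdh2, 3.52 for Vim and -2.85 for Fn1, and 2.58 for Zeb1 and 4.27 for Zeb2. In this effect the WT cells with cytokines had been sorted and the TKO cells had not. The Cldn6 values rest on WT day 6 libraries with 3 raw counts each and are no bound on the size of the difference.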

How the results depend on the processing

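Of 90 calls in the 10 genes, 60 held under every alternative and with any library left out, and no called value changed sign. Requiring a log2 fold change beyond 2 as well left 3 of 7 calls from WT EpiLCs to day 2 without cytokines, 2 of 5 to WT day 6 with cytokines, 2 of 5 between TKO and WT at day 2, 1 of 3 at day 6 with cytokines, 1 of 5 for TKO day 2 against WT day 6 with cytokines, 3 of 5 from TKO EpiLCs to day 2 without cytokines and 1 of 4 from TKO day 2 to day 6 with them. A model of only the groups compared called 5 in place of 2 for cytokines in TKO at day 2, and 4 in place of 0 from TKO day 2 to day 6 without cytokines. For that last comparison, TKO EpiLCs to day 2 with cytokines and the genotype interaction at day 2, counts without a filter were 1, 2 and 4, and by DESeq2 1, 2 and 4, against 0, 1 and 2. With a library left out, counts ranged from 1 to 7 for TKO against WT at day 2, from 0 to 3 for TKO against WT at day 6 with cytokines, from 3 to 6 for TKO day 2 against WT day 6 with cytokines, from 1 to 3 for cytokines in TKO at day 2 and from 1 to 4 at day 6, from 2 to 7 from TKO EpiLCs to day 2 without cytokines, from 0 to 1 from TKO day 2 to day 6 without cytokines, from 0 to 2 from TKO EpiLCs to day 2 with cytokines, from 2 to 6 from TKO day 2 to day 6 with them, from 0 to 3 for the interaction at day 2 and from 5 to 9 at day 6. Same-numbered libraries did not deviate together (r between -0.156 and 0.182 over 36 pairs of groups, 7 above 0.1), and with a replicate block the Vim calls for TKO against WT at day 6 with cytokines (edgeR adjusted p = 0.0513) and for cytokines in TKO at day 6 (adjusted p = 0.051) were lost. Scaling by library size moved the median of all genes by -0.174 to 0.176 (log2). The causes were not tested.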
